A study of Homo sapiens with 9 samples.

Results

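The 8 genes described here write, maintain and remove DNA methylation. They are the de novo methyltransferases DNMT3A and DNMT3B with their non-catalytic cofactor DNMT3L, the maintenance methyltransferase DNMT1 with its targeting factor UHRF1, and the oxidising enzymes TET1, TET2 and TET3. They were taken by symbol from the deposited table of raw counts, where all 8 are found among 21229 genes, and 7 of the 8 passed the filter on low counts that left 16232 genes for testing. The 9 libraries were made from haematopoietic cells differentiated from H1, an established human embryonic stem cell line. There were 3 libraries of each of 3 groups: CD38+ cells of control genotype, CD90+ cells of control genotype, and CD90+ cells with GATA2 overexpression. CD38 is a surface antigen that progenitors gain as they leave the stem cell state, and CD90, the THY1 product, is carried by the most primitive ones. GATA2 is a transcription factor of haematopoietic stem and progenitor cells, and all cells, the control ones included, come from the same H1 line. The sources used here do not state how GATA2 was overexpressed, the day of differentiation or whether replicate libraries are separate cultures, so p-values measure the spread between these libraries, which may be technical.

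DNA methylation in mammals sits mostly on cytosines followed by guanine (CpG). DNMT3A and DNMT3B place it on unmethylated DNA. UHRF1 recognises the half-methylated sites left by replication and brings DNMT1 to copy the mark to the new strand. TET enzymes oxidise methylated cytosine, which allows its loss by dilution or base excision repair. In blood, DNMT3A and TET2 are among the genes most often mutated in clonal haematopoiesis and myeloid leukaemia, while DNMT3B, DNMT3L and TET1 are known for high expression in pluripotent cells. Only RNA was measured here, not methylation.

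Assigned reads totalled 37500192 to 47261093 per library. In the check of the labels, GATA2 was at 551 to 581 CPM (counts relative to library size) in CD38+ control libraries, 85.9 to 89.5 in CD90+ control libraries and 363 to 388 in GATA2 overexpression libraries, so the overexpression libraries lay above the control CD90+ libraries and below the CD38+ ones. THY1 had 0 counts in the 3 CD38+ libraries and 2.80 to 5.09 CPM in the 6 CD90+ libraries, while CD38 was at 119 to 124 CPM in CD38+ cells and 1.74 to 4.81 in the others. CPM here are scaled by library size and TMM factors, which bring the bulk of genes to a common level. These are bulk samples, so fewer cells of a type and less RNA per cell cannot be told apart.

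Most genes differed between these groups, which sets the scale for the counts below. In CD90+ against CD38+ control cells 80.4% of the genes tested were called by edgeR's quasi-likelihood test (adjusted p under 0.05, Benjamini-Hochberg over all genes tested), 41.1% as higher and 39.3% as lower. Of the 7 methylation genes tested 4 were higher, 2 lower and 1 not called, a share near that background. In GATA2 overexpression against control CD90+ cells 77.6% of genes were called, 38% as higher and 39.6% as lower, and the 7 genes again gave 4 higher, 2 lower and 1 not called. In GATA2 overexpression against CD38+ control cells the counts were the same, 4, 2 and 1, against 83.2% of all genes called, 43.3% as higher and 39.9% as lower. The median log2 fold change of the 7 genes was 0.10, 0.22 and 0.32 in these 3 comparisons, beside 0.03, -0.04 and 0.07 over all genes tested. The 3 comparisons share libraries, so their counts are not separate evidence. Libraries did not overlap between groups for 6 of the 7 genes in each comparison, where 82.8%, 80.4% and 83% of all genes tested did not. The counts therefore do not set these genes apart, and what follows is which of them differed and by how much.

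**Figure D1:**
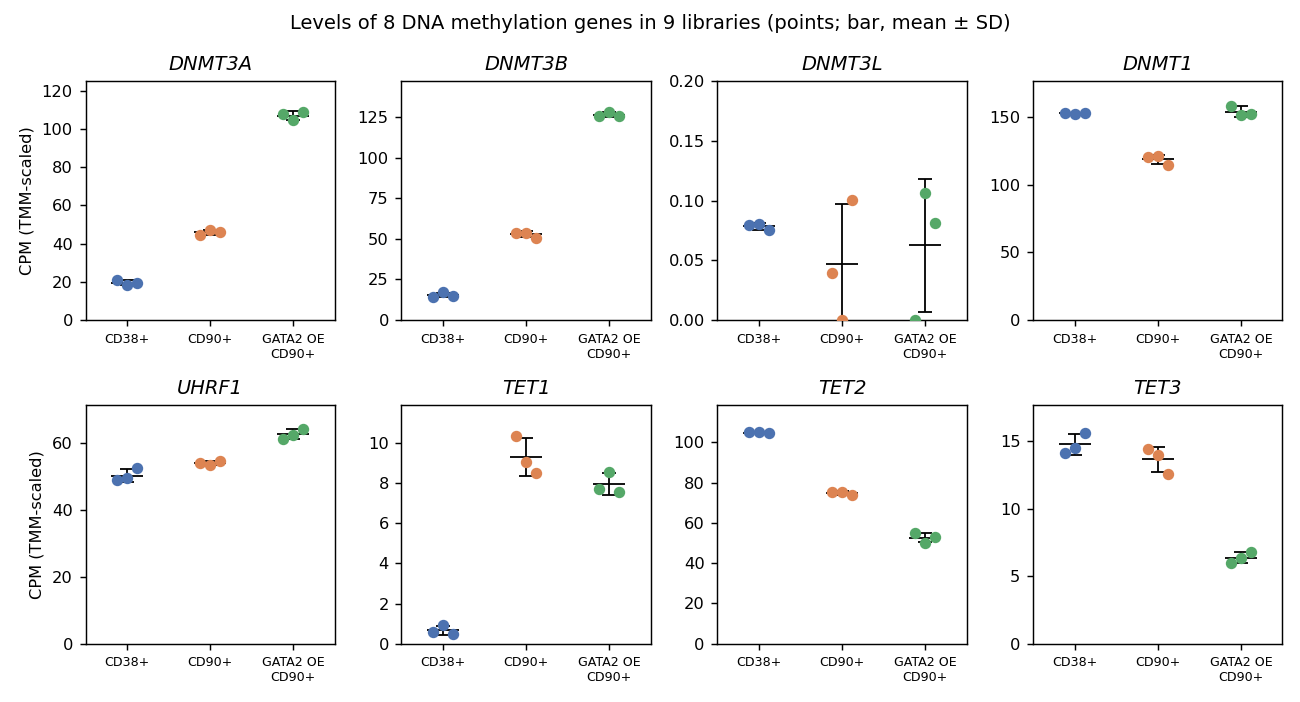
Level of each of the 8 genes in each library, in TMM-scaled CPM on a linear axis that starts at 0; points are libraries, and the bars are the mean ± SD of 3 libraries. DNMT3A and DNMT3B step up from CD38+ to CD90+ to GATA2 overexpression (GATA2 OE) with no overlap, TET2 steps down, TET1 is below 1 CPM in the CD38+ libraries, and DNMT3L stays at or below 0.106 CPM throughout.

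DNMT3A, which together with DNMT3B sets new methylation during development and stem cell differentiation, had its lowest level in CD38+ cells and its highest with GATA2 overexpression. The gene lies on chromosome 2, 25227855 to 25342590, minus strand (GRCh38, GENCODE annotation). Its level was 21.0, 18.2 and 19.4 CPM in the CD38+ control libraries, 44.5, 47.3 and 45.9 in the CD90+ control libraries and 108, 104 and 109 in the GATA2 overexpression libraries. The libraries of the 3 groups did not overlap. Group means were 19.5 ± 1.43, 45.9 ± 1.38 and 107 ± 2.21 CPM (SD, n = 3). CD90+ control cells were 2.35-fold above CD38+ cells (log2 fold change 1.23, SE 0.050, adjusted p = 3.67e-13). The GATA2 overexpression libraries were 2.33-fold above control CD90+ cells (log2 fold change 1.22, SE 0.0452, adjusted p = 1.37e-13). Against CD38+ cells the GATA2 overexpression libraries were 5.47-fold higher.

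DNMT3B, the second de novo enzyme, had the larger span. It lies on chromosome 20, 32762385 to 32809356, plus strand. The CD38+ libraries held 14.4, 17.1 and 14.7 CPM, the CD90+ control libraries 53.9, 53.7 and 50.6, and the GATA2 overexpression libraries 126, 128 and 126. Again no library of a group reached the range of another. The means of 15.4 ± 1.46, 52.7 ± 1.86 and 126 ± 1.47 CPM correspond to a 3.43-fold rise from CD38+ to CD90+ control cells (log2 fold change 1.78, SE 0.0539, adjusted p = 6.85e-15). With GATA2 overexpression it was 2.40-fold higher than in control CD90+ cells (log2 fold change 1.26, SE 0.0466, adjusted p = 1.29e-13) and 8.21-fold higher than in CD38+ cells. Of all genes tested, 7.98% were called at least 2-fold higher with GATA2 overexpression than in control CD90+ cells, and both de novo enzymes were among them. Between CD90+ and CD38+ control cells that share was 22.6%, and between GATA2 overexpression and CD38+ cells 23%.

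Within a library the DNMT3B and DNMT3A counts can be compared without any scaling between libraries. The ratio of DNMT3B to DNMT3A reads was 0.795 ± 0.131 in CD38+ cells, 1.15 ± 0.0553 in CD90+ control cells and 1.18 ± 0.0385 with GATA2 overexpression. CD38+ libraries lay below both other groups, by 0.54 on the log2 scale against CD90+ control cells (two-sided exact permutation p = 0.1). That is the smallest p that 3 libraries against 3 can give, and it was 0.106 after adjustment over the 18 ratio comparisons made. GATA2 overexpression and control CD90+ libraries overlapped, with a difference of 0.04 (exact permutation p = 0.4) that ran from 0.014 to 0.082 when 1 library was left out. DNMT3B reads were thus fewer than DNMT3A reads in all 3 CD38+ libraries and more in all 6 CD90+ libraries.

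DNMT3L, which lacks catalytic activity and stimulates the de novo enzymes in germ cells and early embryos, was barely detected. It had 3, 3 and 3 reads in the CD38+ libraries, 2, 0 and 5 in the CD90+ control libraries and 0, 4 and 3 in the GATA2 overexpression libraries. The group sums of 9, 7 and 7 reads have 95% Poisson intervals of 4.12 to 17.1, 2.81 to 14.4 and 2.81 to 14.4, which cover counting error only and overlap throughout. It failed the filter on low counts and was not tested, and no difference was detectable at this depth. The annotation places an antisense gene over its exons, and the use of strand in the authors' counting is not stated, so even these few reads are uncertain.

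The promoter of DNMT3A is shown as the letters before a gene that rose in both steps. It is the RefSeq sequence of the 250 bases before the listed start, the most upstream of 6, which is also the GENCODE gene start. The window holds 12 CpGs, marked in capitals, at 65.6% G and C, where the median over 27305 windows of RefSeq genes is 10 CpGs.
DNMT3A, chr2:25342591-25342840, minus strand, GRCh38.p14: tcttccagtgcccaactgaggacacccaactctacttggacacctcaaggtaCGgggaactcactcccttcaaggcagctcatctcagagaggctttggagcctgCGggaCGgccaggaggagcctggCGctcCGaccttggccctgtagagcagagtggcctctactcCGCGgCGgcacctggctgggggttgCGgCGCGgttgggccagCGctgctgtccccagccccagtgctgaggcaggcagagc

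Markers of pluripotent cells moved along with DNMT3B between the control fractions. The summed level of 15 such genes was 35.9 to 38.5 CPM in CD38+ libraries, 130 to 132 in CD90+ control libraries and 124 to 141 with GATA2 overexpression, with 4, 8 and 7 of the 15 at or above 1 CPM. Of the 13 tested, 11 rose and 1 fell from CD38+ to CD90+ control cells, and 2 rose and 8 fell with GATA2 overexpression. The defining marker POU5F1 was at 0 counts in all CD38+ and GATA2 overexpression libraries and at 0.0264 ± 0.0299 CPM in CD90+ control libraries. SOX2, at 0 counts in CD38+ cells, was at 6.14 ± 0.635 CPM in control CD90+ cells and 0.599 ± 0.268 with GATA2 overexpression. LIN28B, an RNA-binding protein of embryonic and fetal progenitors, was at 19.1, 39.3 and 42.2 CPM in the 3 groups. NANOG, also on the list, was not analysed here. Whether any pluripotent cells were present, or had a part in the DNMT3B, DNMT3A and TET1 differences, was not tested.

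DNMT1, the maintenance enzyme, was lower in CD90+ control cells than in both other groups. It lies on chromosome 19, 10133345 to 10231286, minus strand, and its exons overlap those of S1PR2 on the same strand, which held at most 204 reads in a library. Its level was 153, 152 and 153 CPM in the CD38+ libraries, 121, 121 and 115 in the CD90+ control libraries and 159, 152 and 152 with GATA2 overexpression. The CD38+ and GATA2 overexpression libraries overlapped, and the CD90+ control libraries lay below both. The means of 153 ± 0.477, 119 ± 3.48 and 154 ± 3.80 CPM gave a level 1.29-fold lower in CD90+ than in CD38+ control cells (log2 fold change -0.36, SE 0.0285, adjusted p = 3.31e-09). It was 1.30-fold higher with GATA2 overexpression than in control CD90+ cells (log2 fold change 0.38, SE 0.0286, adjusted p = 2.35e-09). Between GATA2 overexpression and CD38+ cells the difference was 0.01 (95% interval -0.05 to 0.07, adjusted p = 0.684), though it was called at 0.17 with library size alone and 0.16 with upper-quartile factors (adjusted p from 2.12e-05 to 0.965 over all alternatives). The fall in CD90+ control cells rests on the scaling: with library size alone the log2 fold change was 0.05 (adjusted p = 0.131, and 5.45e-21 to 0.131 over all alternatives), and the rise with GATA2 overexpression shrank to 0.13 (adjusted p = 0.000560).

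UHRF1, which reads half-methylated CpGs and recruits DNMT1, moved least of the called genes. It lies on chromosome 19, 4903080 to 4962154, plus strand. The libraries held 48.8, 49.4 and 52.5 CPM in CD38+ cells, 53.9, 53.3 and 54.4 in CD90+ control cells and 61.2, 62.3 and 64.1 with GATA2 overexpression. The 3 ranges did not overlap, but the gap between the control fractions was under 1 CPM. Group means were 50.2 ± 1.97, 53.9 ± 0.584 and 62.5 ± 1.46 CPM. The rise from CD38+ to CD90+ control cells was 1.07-fold (log2 fold change 0.10, SE 0.0401, adjusted p = 0.0291), and it was no longer called without CD38+ replicate 1 or 2 or CD90+ replicate 1 or 3 (adjusted p = 0.117, 0.0916, 0.0503 and 0.0711). With library size alone the value was 0.51 (adjusted p from 3.14e-09 to 0.117 over all alternatives). With GATA2 overexpression UHRF1 was 1.16-fold higher than in control CD90+ cells (log2 fold change 0.22, SE 0.0397, adjusted p = 0.000111), though with library size alone the value was -0.03 (adjusted p = 0.458, and 3.84e-05 to 0.458 over all alternatives). Against CD38+ cells it was 1.25-fold higher (adjusted p = 1.51e-06).

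The DNMT1 and UHRF1 proteins work at the replication fork, and both genes are known targets of E2F factors, which drive S phase genes. The letters TTCCCGC or TTCGCGC of an E2F site, searched on both strands in the 300 bases from 250 before to 50 after the RefSeq start, were found near the starts of DNMT1, UHRF1 and TET3 among the 7 genes with a RefSeq promoter entry. They occur in 2336 of 27305 windows of RefSeq genes (8.56%). The stretches of 30 bases are shown so that the copies can be compared, read along the strand of each gene, with the matched letters in capitals. The RefSeq starts used for these 3 genes differ from the GENCODE gene starts. A match is a description of letters and not a site.
DNMT1, chr19:10194937-10194966, minus strand, match begins 2 bases before the start: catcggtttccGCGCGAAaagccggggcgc
UHRF1, chr19:4909386-4909415, plus strand, match begins 104 bases before the start: ctctttctcgcTTCCCGCcactgcgtcggc
UHRF1, chr19:4909476-4909505, plus strand, match begins 14 bases before the start: gccgagttttcGCGGGAAaaaaatcagagc
TET3, chr2:73984767-73984796, plus strand, match begins 132 bases before the start: ccctcccctccGCGGGAAccacccccctct

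These 3 genes did not follow a common course. UHRF1 and DNMT1 were higher with GATA2 overexpression than in control CD90+ cells, and TET3, described with the other TET enzymes, was lower. The letters AGATAA or TGATAA of a GATA site, searched in the same windows on both strands, were in none of the 7 windows and in 16.7% of all windows. The RefSeq starts used for DNMT3B and TET1 also differ from their GENCODE gene starts. DNMT3B was searched around 32779852, inside the gene, and not around its GENCODE start at 32762385. Absence of the letters, E2F or GATA, thus holds for the windows searched only.

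S phase genes were measured beside them, since the level of maintenance enzymes is known to follow replication. Of 28 S phase genes, 14 were higher and 13 lower in CD90+ than in CD38+ control cells, with a median log2 fold change of 0.00. With GATA2 overexpression and TMM scaling 27 of the 28 were higher than in control CD90+ cells, with a median of 0.50. None was lower by edgeR under that scaling, also at an unadjusted p under 0.05. With RLE or upper-quartile factors 27 were higher and 1 lower, and with library size alone 22 and 1. The summed level of the 28 genes was 2401 to 2460 CPM in CD38+ libraries, 2259 to 2271 in CD90+ control libraries and 3483 to 3509 with GATA2 overexpression. With library size alone these sums were 2103 to 2157, 2632 to 2640 and 3407 to 3443. The order of the control fractions therefore rests on the scaling. TYMS, which makes thymidylate, rose from 80.1 ± 3.19 to 192 ± 1.03 CPM with GATA2 overexpression, and MCM7, a subunit of the replicative helicase, from 332 ± 0.593 to 564 ± 3.51.

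Relative to the summed S phase reads of the same library, both maintenance genes were lowest with GATA2 overexpression. UHRF1 reads were 0.0207 ± 0.000549 of that sum in CD38+ cells, 0.0238 ± 0.000283 in CD90+ control cells and 0.0179 ± 0.000376 with GATA2 overexpression. DNMT1 reads were 0.0630 ± 0.000677, 0.0525 ± 0.00144 and 0.0441 ± 0.00126 of it. For both genes the libraries of the 3 groups did not overlap. On the log2 scale the GATA2 overexpression libraries were below control CD90+ libraries by a difference of -0.41 for UHRF1 and -0.25 for DNMT1 (two-sided exact permutation p = 0.1 each, the smallest possible, 0.106 adjusted over 18). UHRF1 per DNMT1 read was 0.328 ± 0.0121, 0.454 ± 0.0180 and 0.406 ± 0.0179 in CD38+, CD90+ control and GATA2 overexpression cells, with no overlap (exact permutation p = 0.1 for each pair of groups).

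**Figure D2:**
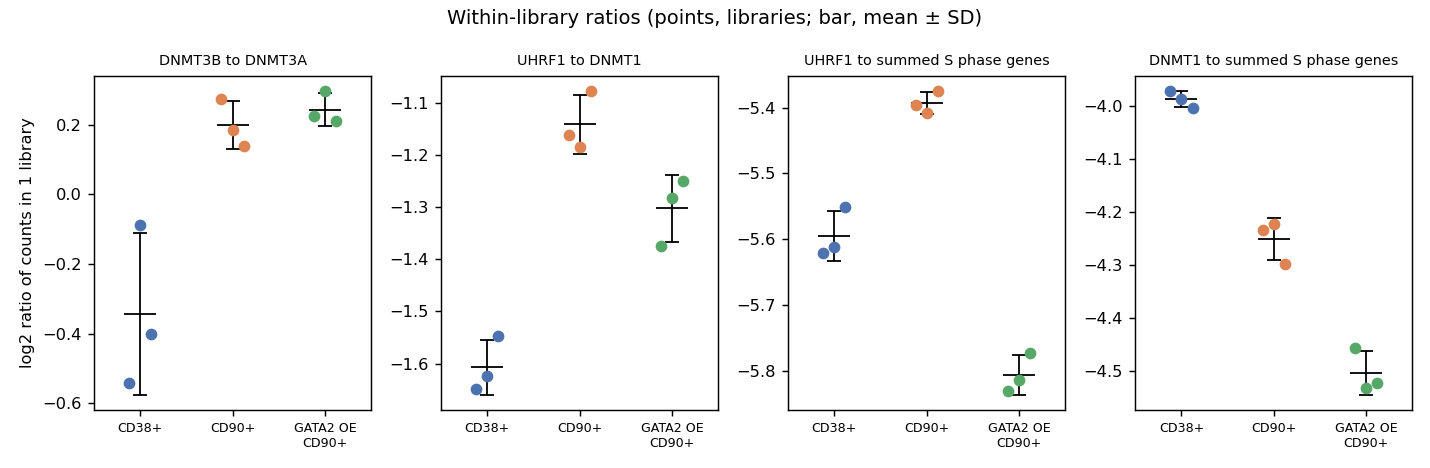
Ratios of read counts within 1 library, on a log2 axis that does not start at 0; points are libraries and bars the mean ± SD of 3 libraries. UHRF1 per DNMT1 is highest in CD90+ control cells, and DNMT1 and UHRF1 per summed S phase reads are lowest with GATA2 overexpression, at means of -4.50 and -5.81.

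TET1, the TET enzyme of embryonic stem cells and germ cells, separated CD38+ cells from both CD90+ groups. It lies on chromosome 10, 68560656 to 68694482, plus strand. It had 22, 34 and 20 reads in the CD38+ libraries, or 0.585, 0.909 and 0.501 CPM. The CD90+ control libraries held 10.3, 9.05 and 8.5 CPM (422 to 525 reads) and the GATA2 overexpression libraries 7.70, 8.56 and 7.53 CPM (277 to 323 reads). The rise from 0.665 ± 0.216 to 9.29 ± 0.930 CPM between CD38+ and CD90+ control cells was 14-fold (log2 fold change 3.80, SE 0.187, adjusted p = 5.26e-12), the widest change of the 7 genes tested in any comparison. With GATA2 overexpression TET1 was at 7.93 ± 0.551 CPM, a difference of -0.23 from control CD90+ cells that was not called (95% interval -0.54 to 0.08, adjusted p = 0.162), and the libraries overlapped. Under 4 other settings it was called lower, by -0.28 to -0.48 (adjusted p from 0.00674 to 0.432 over all alternatives). Against CD38+ cells the GATA2 overexpression libraries were 11.9-fold higher (adjusted p = 1.06e-11).

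TET2, whose loss expands blood stem cells and which had the highest level of the 3 TET genes in every group, fell from CD38+ to CD90+ to GATA2 overexpression. It lies on chromosome 4, 105145875 to 105279816, plus strand. The CD38+ libraries were at 105, 105 and 105 CPM, the CD90+ control libraries at 75.3, 75.3 and 73.8 and the GATA2 overexpression libraries at 54.7, 50.1 and 53.1. No library of a group reached another group's range. The means of 105 ± 0.258, 74.8 ± 0.882 and 52.7 ± 2.35 CPM gave a level 1.40-fold lower in CD90+ than in CD38+ control cells (log2 fold change -0.49, SE 0.0349, adjusted p = 9.31e-10). It was 1.42-fold lower with GATA2 overexpression than in control CD90+ cells (log2 fold change -0.51, SE 0.0361, adjusted p = 1.01e-09) and 1.99-fold lower than in CD38+ cells. With library size alone the first difference narrowed to -0.08 (adjusted p = 0.0497, the highest of 3.82e-28 to 0.0497 over all alternatives).

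The TET2 promoter is shown for comparison with that of DNMT3A, as the letters before a gene that moved the other way in both steps. The 250 bases before the start, which RefSeq and GENCODE share, hold 10 CpGs in capitals at 45.6% G and C, against 12 and 65.6% for DNMT3A.
TET2, chr4:105145625-105145874, plus strand, GRCh38.p14: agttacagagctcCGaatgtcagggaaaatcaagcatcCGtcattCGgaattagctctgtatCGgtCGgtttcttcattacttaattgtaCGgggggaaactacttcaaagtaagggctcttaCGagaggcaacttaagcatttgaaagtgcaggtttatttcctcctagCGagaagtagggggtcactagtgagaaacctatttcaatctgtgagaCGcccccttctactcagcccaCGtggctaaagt

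TET3, the TET enzyme of the oocyte and of many differentiated tissues, was lower with GATA2 overexpression than in both control groups. It lies on chromosome 2, 73986404 to 74108176, plus strand. Its level was 14.1, 14.5 and 15.6 CPM in the CD38+ libraries, 14.4, 14 and 12.6 in the CD90+ control libraries and 5.97, 6.36 and 6.80 with GATA2 overexpression. The control groups overlapped, and the 3 GATA2 overexpression libraries lay below all 6 control libraries. Between the control fractions, at 14.8 ± 0.754 and 13.6 ± 0.951 CPM, the log2 difference was -0.11 (95% interval -0.30 to 0.08, adjusted p = 0.252), and it turned to 0.30 (adjusted p = 0.00599) with library size alone and 0.15 with upper-quartile factors (0.00599 to 0.736 over all alternatives). With GATA2 overexpression TET3 was at 6.37 ± 0.414 CPM, 2.14-fold below control CD90+ cells (log2 fold change -1.10, SE 0.0943, adjusted p = 1.22e-08) and 2.32-fold below CD38+ cells (adjusted p = 2.67e-09). Of all genes tested, 21.4% were called at least 2-fold lower with GATA2 overexpression than in control CD90+ cells and 21.2% than in CD38+ cells. Between CD90+ and CD38+ control cells 13.6% were, and none of the 7 genes was among them.

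**Figure D3:**
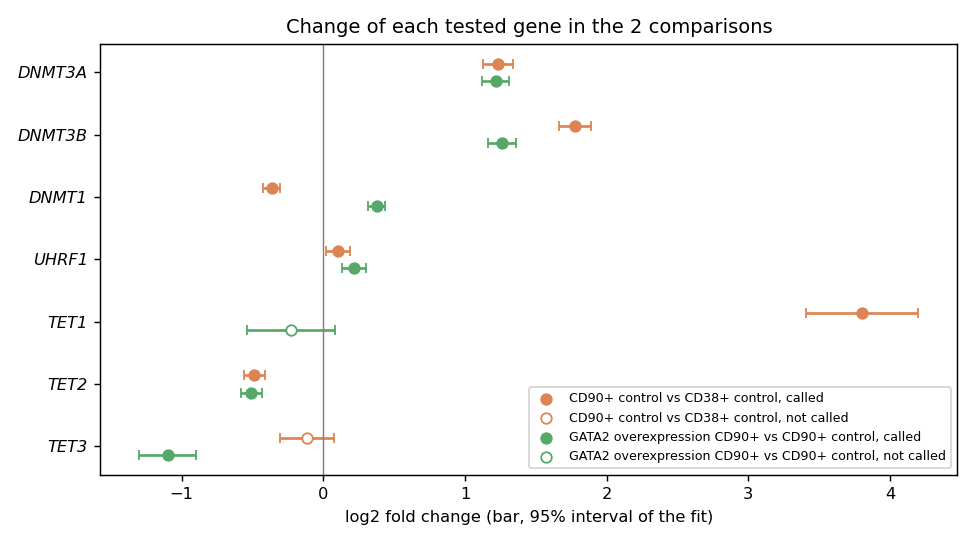
Log2 fold change of the 7 genes tested in CD90+ against CD38+ control cells (orange) and in GATA2 overexpression against control CD90+ cells (green), which share the CD90+ control libraries; bars are 95% intervals of the edgeR fit and open circles were not called. DNMT3A and DNMT3B lie above 1 in both colours, TET1 lies at 3.80 in orange and at -0.23, not called, in green, and TET3 lies at -0.11, not called, in orange and at -1.10 in green.

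Ratios within a library gave the balance of the TET genes without scaling. TET1 reads per TET2 read were 0.00647 ± 0.00205 in CD38+ cells, 0.124 ± 0.0114 in CD90+ control cells and 0.151 ± 0.0171 with GATA2 overexpression. TET3 reads per TET2 read were 0.141 ± 0.00755, 0.182 ± 0.0107 and 0.122 ± 0.0106. In both ratios the libraries of the 3 groups did not overlap (two-sided exact permutation p = 0.1 for each pair of groups, 0.106 adjusted over 18). The TET3 to TET2 ratio fell below that of control CD90+ cells by a log2 difference of -0.59 with GATA2 overexpression.

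Levels per gene length allow the 8 genes to be set in order within a group. CPM per kilobase of exon was led by DNMT1 in every group, at 28, 21.8 and 28.3 in CD38+, CD90+ control and GATA2 overexpression cells. In CD38+ cells the order was DNMT1, UHRF1 (9.76), TET2 (6.66), DNMT3B (3.33), DNMT3A (1.82), TET3 (1.29), TET1 (0.0716) and DNMT3L (0.0459), and no neighbours overlapped. In CD90+ control cells DNMT3B stood second at 11.4 CPM per kilobase, followed by UHRF1 (10.5), TET2 (4.76), DNMT3A (4.28), TET3 (1.19), TET1 (1.0) and DNMT3L (0.0273). TET3 and TET1 overlapped there, and the other neighbours did not. With GATA2 overexpression DNMT3B was at 27.3, close under DNMT1, and their order turns when exons of all annotated transcripts set the length. UHRF1 (12.2), DNMT3A (9.95), TET2 (3.35), TET1 (0.854), TET3 (0.555) and DNMT3L (0.0366) followed without overlap. DNMT3A lay below TET2 in both control groups and above it with GATA2 overexpression.

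Summed per kilobase, the de novo enzymes were higher and the TET enzymes lower at each step with TMM scaling, but with library size alone the TET sum was 7.03, 8.08 and 4.66 and so higher in CD90+ than in CD38+ control cells. DNMT3A and DNMT3B together held 5.15 ± 0.209 CPM per kilobase in CD38+ cells, 15.7 ± 0.418 in CD90+ control cells and 37.3 ± 0.117 with GATA2 overexpression. The 3 TET genes together held 8.02 ± 0.0437, 6.94 ± 0.226 and 4.76 ± 0.0862. DNMT1 and UHRF1 together held 37.8 ± 0.453, 32.3 ± 0.542 and 40.4 ± 0.526, or 33.1, 37.5 and 39.6 with library size alone. The ratio of the de novo sum to the TET sum, which does not depend on scaling between libraries, was 0.641 ± 0.0263, 2.26 ± 0.0438 and 7.84 ± 0.168, with libraries of 0.618 to 0.670, 2.21 to 2.29 and 7.70 to 8.02. The ranges lay far apart, and the sums are given as a description with no test.

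The make-up of each family shifted as well. DNMT1 made up 84.5% ± 0.570 of the summed DNMT1, DNMT3A and DNMT3B level per kilobase in CD38+ cells, 58.2% ± 0.152 in CD90+ control cells and 43.1% ± 0.661 with GATA2 overexpression. DNMT3B went from 10.03% ± 0.910 to 30.4% ± 0.288 and 41.7% ± 0.740, and DNMT3A from 5.48% ± 0.418 to 11.4% ± 0.435 and 15.2% ± 0.306. Among the TET genes TET2 held 83.1% ± 0.644, 68.5% ± 1.53 and 70.4% ± 1.88. TET1 held 0.892% ± 0.289, 14.4% ± 1.01 and 18% ± 1.57, and TET3 16.0% ± 0.742, 17.1% ± 0.660 and 11.7% ± 0.826.

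**Figure D4:**
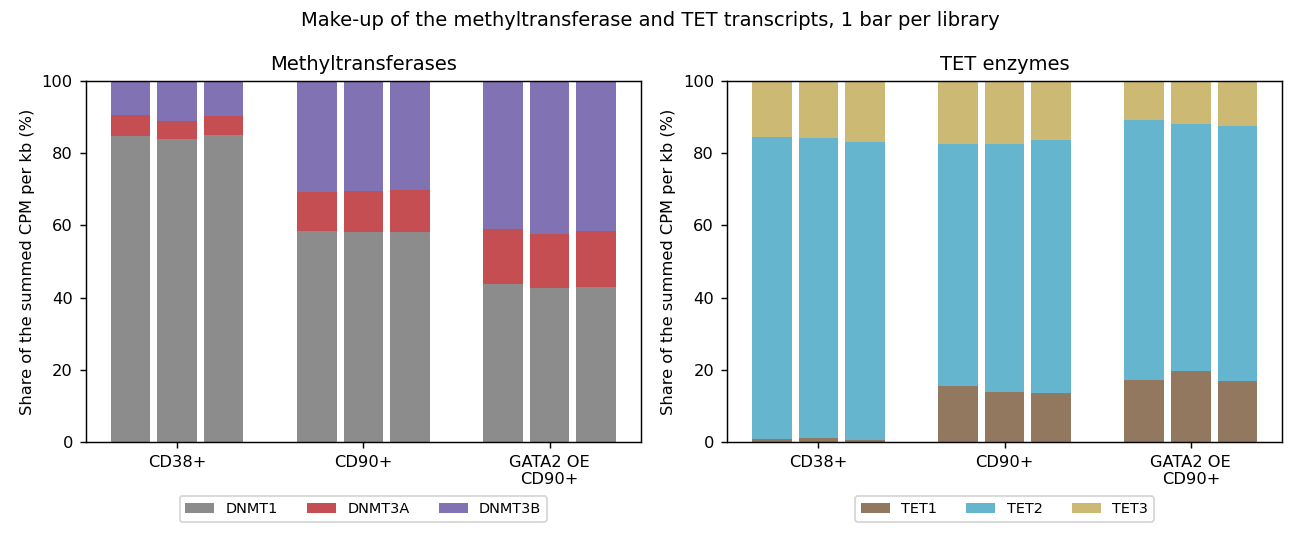
Share of each gene in the summed CPM per kilobase of the methyltransferases (left) and TET enzymes (right), in percent, with 1 bar per library and 3 libraries per group. DNMT1 falls from 84.5% to 43.1% of the methyltransferase sum as DNMT3B and DNMT3A grow, and TET1 goes from 0.892% to 14.4% and 18% of the TET sum.

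Partners of these enzymes were counted from lists. Of 15 maintenance and targeting partners, 7 were higher, 4 lower and 4 not called in CD90+ against CD38+ control cells (median log2 fold change 0.12). With library size alone 10 were higher and 2 lower there. With GATA2 overexpression 9 were higher and 4 lower than in control CD90+ cells (median 0.49), or 8 and 6 with library size alone. CDCA7, which with HELLS forms a nucleosome remodeller needed for DNA methylation, was at 35.1 ± 1.58, 81.4 ± 2.32 and 184 ± 2.79 CPM in CD38+, CD90+ control and GATA2 overexpression cells (adjusted p = 7.71e-15 and 4.81e-15 for the 2 steps). Under TMM scaling HELLS itself was lower in CD90+ than in CD38+ control cells, at 46.4 ± 2.61 against 61.4 ± 0.336 CPM (adjusted p = 3.44e-07). It was at 44.6 ± 1.5 with GATA2 overexpression, which was not called. Its values under other scalings are not given here. PCNA, the sliding clamp that binds DNMT1, fell from 386 ± 3.32 to 147 ± 1.02 CPM between the control fractions and was at 327 ± 4.43 with GATA2 overexpression. USP7, a deubiquitinase that binds DNMT1 and UHRF1, fell from 107 ± 5.25 to 72.8 ± 3.37 CPM with GATA2 overexpression. UHRF2, the paralog of UHRF1, was at 37.7 ± 2.64, 49.5 ± 2.66 and 69.2 ± 1.59 CPM and was called higher at each step.

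Readers of methylated CpG were listed with relatives from the same protein families, such as MBD3, MBD5 and MBD6. Genes of this list were lower where they differed under TMM scaling, with 1 exception. With library size alone 5 were higher and 2 lower in CD90+ than in CD38+ control cells. With TMM scaling 5 of 10 were lower there and none higher by edgeR, also at an unadjusted p under 0.05. By contrast 1 was higher with RLE factors and 4 with upper-quartile factors. With GATA2 overexpression 8 were lower than in control CD90+ cells and 1 higher, or 8 and 0 with library size alone. ZBTB38, a zinc finger protein that binds methylated CpG, fell 2.16-fold from 29.96 ± 0.646 to 13.8 ± 0.843 CPM with GATA2 overexpression (adjusted p = 4.08e-11). MBD2, a subunit of the NuRD complex, was at 68.3 ± 1.24 in CD38+ and 42.9 ± 0.825 CPM in CD90+ control cells (adjusted p = 4.48e-09). The exception, MBD4, a glycosylase for mismatched thymine at CpG, rose from 60.9 ± 1.07 to 72.9 ± 1.29 CPM with GATA2 overexpression (adjusted p = 3.97e-06). This rise rests on the scaling, since MBD4 was not called higher with library size alone.

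Genes that act with or after the TET enzymes gave mixed counts. Of 19 TET partners and base excision repair genes, 12 were higher and 6 lower in CD90+ against CD38+ control cells (14 and 2 with library size alone), and 10 were higher and 5 lower with GATA2 overexpression than in control CD90+ cells (7 and 9 with library size alone). APEX1, the endonuclease that cuts the base-free site left by a glycosylase, was at 54.7 ± 1.74, 213 ± 1.06 and 426 ± 1.68 CPM in the 3 groups. NTHL1, a DNA glycosylase, was at 9.64 ± 1.12, 30.5 ± 0.676 and 78.8 ± 3.13 CPM. TDG, the glycosylase that removes oxidised methylcytosine, was at 106 ± 0.876, 76.4 ± 4.32 and 85.5 ± 2.71 CPM in the same order. OGT, which binds TET proteins, fell from 157 ± 3.63 to 79.7 ± 8.93 CPM with GATA2 overexpression (adjusted p = 1.60e-11). IDH2, which makes the alpha-ketoglutarate that TET enzymes consume, rose from 392 ± 6.13 to 658 ± 5.79 CPM (adjusted p = 1.21e-14).

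The S-adenosylmethionine cycle supplies the methyl group that DNMT enzymes transfer. Of its 16 genes tested of 17, 8 were higher and 5 lower in CD90+ against CD38+ control cells, and 6 higher and 8 lower with GATA2 overexpression than in control CD90+ cells. With library size alone 11 were higher and 5 lower in the first comparison, and 5 higher and 10 lower in the second. AHCY, which clears the methyltransferase product S-adenosylhomocysteine, was at 58.5 ± 1.76 CPM in CD38+ cells, 133 ± 2.5 in CD90+ control cells and 185 ± 0.990 with GATA2 overexpression. MAT2A, the S-adenosylmethionine synthetase of non-liver cells, fell from 219 ± 2.55 to 165 ± 1.47 CPM with GATA2 overexpression, and MAT2B, its regulatory partner, rose from 116 ± 1.42 to 185 ± 4.63 (adjusted p = 7.07e-11 and 8.31e-13).

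Germline genes known to be silenced by promoter methylation in somatic cells stayed low. Of 16 such genes, 8 had enough reads to be tested, and the summed level of all 16 was 14.5 to 16.1 CPM in CD38+ libraries, 11.2 to 13 in CD90+ control libraries and 9.48 to 11 with GATA2 overexpression. At least 1 CPM was reached by 4, 3 and 4 of them. In the step to GATA2 overexpression 2 were higher and 2 lower: TDRD9 and SOHLH2 rose to 2.85 ± 0.321 and 2.77 ± 0.177 CPM, while SYCP3 fell to 0.481 ± 0.323 and TDRD6 from 4.81 ± 0.779 to 0.117 ± 0.160 CPM. Between the control fractions 4 were higher and 2 lower, and SYCP3 fell from 4.61 ± 0.538 to 0.977 ± 0.265 CPM.

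Markers of other blood and non-blood cells differed between the groups along with the methylation genes. The summed level of 12 macrophage markers was 2384 to 2439 CPM in CD38+ libraries, 2080 to 2119 in CD90+ control libraries and 563 to 583 with GATA2 overexpression, where 11 of the 11 tested were lower than in control CD90+ cells and C1QA and C1QB were at 0.654 and 0.414 CPM. The 12 mesenchymal markers summed to 48.3 to 52.2, 1221 to 1239 and 289 to 311 CPM, and POSTN was at 0 counts in CD38+ cells. The 12 mast cell, basophil and eosinophil markers summed to 5528 to 5766, 307 to 313 and 875 to 969 CPM, and the 9 megakaryocyte markers to 534 to 540, 2499 to 2532 and 3891 to 3991 CPM. Epithelial and endoderm markers summed to 358 to 373, 1078 to 1086 and 706 to 713 CPM, erythroid markers to 251 to 260, 857 to 882 and 466 to 547, endothelial markers to 505 to 539, 506 to 517 and 855 to 901, lymphoid markers to 318 to 331, 109 to 116 and 53.4 to 54.5, and neural markers to 7.16 to 7.33, 33.1 to 38.6 and 10.1 to 11.4. With TMM scaling the megakaryocyte sum climbed through all 3 groups without overlap, as DNMT3A and DNMT3B did. Its 9 genes were split: 8 rose and 0 fell from CD38+ to CD90+ control cells, but 5 rose and 3 fell with GATA2 overexpression. The surface antigen CD34 climbed through all 3 groups, at 15.1, 122 and 389 CPM on average. With library size alone the endothelial sum climbed too (442 to 472, 586 to 603 and 839 to 881 CPM). Of the 10 endothelial markers, 6 rose and 3 fell with GATA2 overexpression under TMM scaling. The macrophage and lymphoid sums and PTPRC, the leukocyte antigen CD45 (257, 118 and 36.4 CPM on average), descended without overlap with TMM scaling, as TET2 did. Single markers were mixed in the first step, from CD38+ to CD90+ control cells. There 5 macrophage markers rose and 6 fell, and 1 lymphoid marker rose, 5 fell and 4 were not called. With library size alone the macrophage sum was 2087 to 2137, 2427 to 2472 and 553 to 570 CPM, and so highest in CD90+ control cells. The part of any of these cells in the 8 genes' differences was not tested.

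The genes whose pattern over the 9 libraries was most like that of each methylation gene were found among 13186 genes, by the root mean square difference of centred log2 CPM. CDCA7 was closest to DNMT3A at 0.0567, followed by the imprinted gene MEST at 0.0819. HACD1 was closest to DNMT3B at 0.0887, followed by CTDSPL at 0.0888 and NTHL1, the glycosylase above, at 0.0918. SRP54 was closest to DNMT1 at 0.0253, AAMP to UHRF1 at 0.0312, PAK2 to TET2 at 0.0290 and ZNF276 to TET3 at 0.0782. TET1 had no gene nearer than LDB2 at 0.152. These are descriptions of 9 libraries in 3 groups, in which many genes share a pattern.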

How the data were processed

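Blood-forming cells from H1 stem cells were profiled by paired-end RNA sequencing of strand-specific libraries (per the labels' protocols). The values are the authors' deposited raw counts per gene symbol, made with HISAT2 and featureCounts on hg38 per the submitters' processing notes; the sources used here give no versions, annotation or strand setting. The labels' genotype and surface marker set the groups of the 9 libraries.

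The filter on low counts was filterByExpr with a minimum count of 10 and a total of 15. Genes were tested in 1 model of 3 group means over 9 libraries with edgeR 4.0.16 (R 4.3.3), TMM factors and no block, with Benjamini-Hochberg adjustment over 16232 genes. Replicate libraries differed beyond sampling noise (chi-square per degree of freedom 3.96 to 7.84). The procedure was tested on simulated data in which few genes differed between the groups compared, unlike in these data. Ratios within a library used reads with 0.5 added in a two-sided exact permutation test. Levels per kilobase used the exon length of basic protein-coding GENCODE transcripts on GRCh38. Alternatives were other scalings and filters, DESeq2 1.42.0, limma 3.58.1 voom, other sample sets and a replicate block.

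Members and lists were chosen with earlier results of these data known. Of 241 list symbols 227 matched the table and 14 were not analysed here. Named genes were the 8 members, GATA2, THY1 and CD38, up to 3 called genes each way per pathway list and comparison with the lowest adjusted p, markers at or above 1 CPM, and the 3 genes most like each member. HELLS, UHRF2, PTPRC, CD34, POU5F1, POSTN and the low C1Q values were named after their values were seen, outside that rule. Some genes that this rule names are not reported here.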

Additional observations from a re-analysis of the deposited data

How the results depend on the processing

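Of the values of the 7 tested genes under the alternatives, 362 kept their direction and their side of the threshold and 16 did not. The exceptions came from the scaling, the filter on low counts, DESeq2 and single libraries. With library size only, the median of all genes shifted by 0.41, -0.25 and 0.16 in the 3 comparisons. The share of calls that were higher went to 71.2%, 35.5% and 58.0%, from 51.2%, 49.0% and 52.1%. In CD90+ against CD38+ control cells, DNMT1 was then 0.047 (adjusted p = 0.131) and TET3 0.30 (adjusted p = 0.00599), and with upper-quartile factors TET3 was 0.15 (adjusted p = 0.135). In GATA2 overexpression against control CD90+ cells, UHRF1 was -0.033 with library size only (adjusted p = 0.458). There TET1 became called at -0.48 with library size only (adjusted p = 0.00674), -0.34 with upper-quartile factors (0.0403), -0.32 with at least 1 CPM in 3 libraries (0.0468) and -0.28 with DESeq2 (0.0474). DNMT1 in GATA2 overexpression against CD38+ cells was 0.17 with library size only (adjusted p = 2.12e-05), 0.16 with upper-quartile factors (5.21e-05) and -0.0022 with at least 1 CPM in 3 libraries. Leaving out 1 library at a time gave it values from -0.0016 (without GATA2 overexpression replicate 1) to 0.032, and gave UHRF1 in CD90+ against CD38+ control cells values from 0.078 to 0.13. The cause was not tested. DNMT3A and DNMT3B rose in both steps under every alternative run, between 0.97 and 1.64 for DNMT3A and between 1.01 and 2.19 for DNMT3B. All 54 counts of called genes stayed within 1.5 times the main count. The differences in ratios kept their sign under the other pseudocount and without each library, but their exact p could not pass the threshold in any setting. Of the list counts under 3 scalings, alternatives chosen after seeing the data, 15 moved and 93 did not. Same-numbered libraries did not deviate together (correlations -0.029 to 0.026), so no pairing by number was seen. A shared culture or run that left no common deviation would not be seen this way. With the replicate block 12889, 12384 and 13347 genes were called in place of 13056, 12602 and 13498, and no call of the 7 genes changed. Depth limits DNMT3L, with 0 to 5 reads per library.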
